A study of Sus scrofa with 3 samples.

Results

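In liver, 1963 regions of the pig autosomes had a CG methylation level in Enshi black pig (ES in the labels) that lay below, or above, the level of both other animals compared, Large White pig (LW) and Chinese wild boar (WB). They were chosen by the levels in the authors' lists of differentially methylated regions. A region of the list that compared ES with LW was kept when it lay on chromosomes 1 to 18, shared at least 1 bp with a region of the list that compared ES with WB, differed in the same direction in both lists, and overlapped no region listed between LW and WB. Of the 8881 regions of the first list, 7325 were autosomal and 1963 (26.8%) met the rule, of which 1404 were lower and 559 higher in ES. The study sequenced liver DNA of male pigs at postnatal day 90 after bisulfite treatment, a treatment by which only unmethylated cytosine comes to be sequenced as thymine. ES is a breed from China, LW is of European origin, and WB stands for the wild form. Each is given by 1 methylome, and no treatment or altered gene is named. The labels speak of 3 male pigs, and whether DNA of several pigs was pooled is not stated. No breed has a replicate, so the values describe these 3 methylomes, and no test between breeds was made. The level of a region is the authors' mean over its CG sites, given here as a percentage, and differences are in percentage points. The WB level is always that of the overlapping region in the second list, whose bounds can differ. Whole liver holds several cell types, so that a different share of a cell type and a different level within a cell cannot be told apart.

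Cytosine methylation in mammals sits mainly on CG dinucleotides and is copied to the new strand at each cell division by the maintenance methyltransferase DNMT1. Most CG sites of a somatic tissue are highly methylated, whereas CG-dense stretches at promoters, the CpG islands, are mostly free of methylation, and CG-poor regulatory elements such as enhancers often have intermediate or low levels where they are active. An intermediate level in bulk tissue means that part of the DNA molecules is methylated at a site, which can be 1 of the parental alleles, some of the cells, or a mixture of animals.

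The lower regions were mostly places where ES had an intermediate level and both other breeds a high one. Over the 1404 lower regions, the level of ES ran from 2.03% to 80.8% with a median of 49.2% (quartiles 33.8% and 60.7%). LW had a median of 89.8% (79.3% and 95.4%) and WB 90.3% (79.4% and 95.9%) in the same places. All autosomal regions listed between ES and LW with a lower level in ES had nearly the same medians, 49.8% in ES and 89.9% in LW. In 771 of the lower regions (54.9%), ES lay between 30% and 70% while both other breeds were above 80%. Only 36 (2.56%) went from under 20% in ES to above 80% in both others.

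The higher regions were not the mirror image of the lower ones. ES had a median of 78.4% over the 559 higher regions (quartiles 62.8% and 90.5%, range 23.5% to 99.7%), whereas LW had 42.8% (30.5% and 57.4%) and WB 42.2% (27.7% and 55.9%). All autosomal regions listed between ES and LW with a higher level in ES had medians of 86.3% in ES and 46.7% in LW. In 192 of them (34.3%), ES was above 80% and both other breeds lay between 30% and 70%. In 46 (8.23%) both other breeds were under 20%, and in 2 of these ES was above 80%. ES was above 80% in 267 of the higher regions (47.8%), whereas both LW and WB were above 80% in 969 of the lower ones (69.0%).

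**Figure D1:**
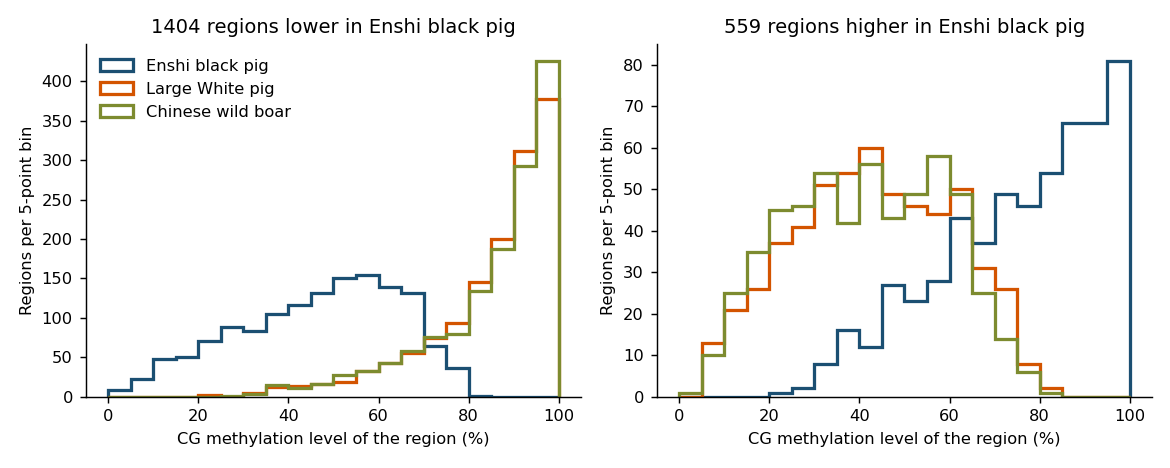
Distribution of the authors' CG methylation level (x axis, %) over the 1404 lower regions (left) and the 559 higher regions (right), as regions per bin of 5 percentage points (y axis), with 1 line per breed. On the left ES spreads around its median of 49.2% and both other breeds pile up above 80%; on the right ES rises toward 100% and the others spread around 42.8% and 42.2%.

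The size of the difference was larger in the lower than in the higher regions. ES was lower than LW by a median of 35.3 points and lower than WB by 35.5 points, and in the higher regions it was higher by 27.8 and 29.4 points. Over all autosomal regions listed between ES and LW, the median of ES minus LW was -33.6 points in the lower and 32.7 points in the higher ones. A difference of at least 50 points from both breeds was found in 234 of the lower regions (16.7%) and in 42 of the higher ones (7.51%), and one of at least 30 points in 839 (59.8%) and 203 (36.3%). Because these levels selected the regions, the values are a description and support nothing further.

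Lower regions made up 71.5% of the 1963, which is more than among the regions they were taken from. Of all autosomal regions listed between ES and LW, 54.4% were lower in ES, and of those listed between ES and WB, 54.9%. The 5362 autosomal regions of the first list that did not meet the rule were lower in ES in 48.2% of cases. Put the other way, 35.2% of the listed regions with a lower level in ES met the rule, and 16.7% of those with a higher level. The same rule applied to the other breeds gave 1154 regions apart in LW, 69.6% of them lower in that breed, and 1367 apart in WB, 62.5% of them lower. Of all listed autosomal regions, LW was lower in 45.6% of those against ES and 51.0% of those against WB, and WB was lower in 45.1% of those against ES and 49.0% of those against LW. The share of lower regions was thus above the listed background for each breed, and ES was not particular in this. The median level of the breed that stood apart was 49.2%, 46.2% and 42.3% in the lower regions of ES, LW and WB, and 78.4%, 86.2% and 83.9% in the higher ones.

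LW and WB had close levels in these regions. The median absolute difference between them was 2.72 points in the lower and 4.35 points in the higher regions, and it stayed under 10 points in 1247 of 1404 (88.8%) and 451 of 559 (80.7%). Across regions their levels correlated with r = 0.885 in the lower and 0.883 in the higher ones, a description over regions that are not independent and that were selected for the absence of a listed difference. LW was above WB in 46.5% of the lower and 57.2% of the higher regions. For 746 regions the start and end were identical in both lists of ES, and there the level of ES itself, estimated once in each list from the same library, differed by a median of 0.0131 points and by at most 11.4 points.

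**Figure D2:**
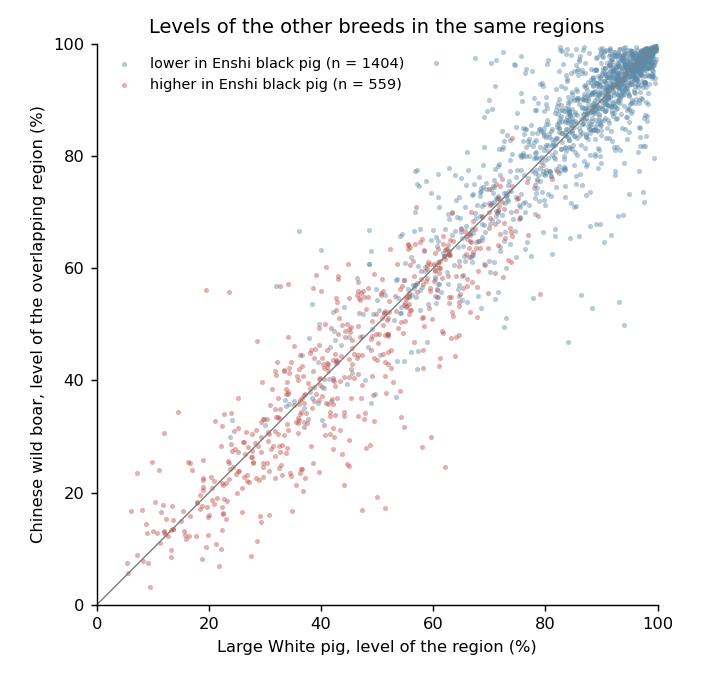
Each point is 1 region apart in ES, at the level of LW (x axis, %) and of WB in the overlapping region (y axis, %), coloured by direction, with the line of equal levels in grey. Points of both directions lie along the line, the lower regions mostly in the upper right corner. A few points lie far from the line, and in some of these both levels come from regions that barely overlap.

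The absence of a listed region did not always mean equal levels. In 19 of the 1963 regions (9 lower, 10 higher) the other breeds differed from each other by more than ES differed from the nearer of them. The widest gap was on chromosome 5, where the region from 101516803 to 101516918 had 45.5% in ES and 94.0% in LW, and the overlapping region from 101516918 to 101519606 had 16.1% in ES and 49.8% in WB. These regions share 1 bp, so that the levels belong to adjoining rather than the same sequence. On chromosome 15, from 6323814 to 6324031, the bounds were identical, and 13 CG sites had 98.1% in ES, 62.1% in LW and 24.5% in WB. On chromosome 4, 9 CG sites from 137583522 to 137583577 had 63.4% in ES and 81.7% in LW. They lay in a region of the second list with 161 CG sites, at 67.0% in ES and 67.1% in WB, a difference of 0.0245 points. That wider region overlaps one listed between LW and WB, from 137583948 to 137585447, with 80.2% in LW and 45.6% in WB. The rule checked only the region of the first list, and 23 of the overlapping regions in the second list did overlap a region listed between LW and WB. In all, 7 regions (3 lower, 4 higher) differed by under 10 points from one of the breeds.

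The listed single CG sites, which the rule did not use, come from the same 3 libraries and so are no independent measurement, but they show how much of each region passed the authors' limits site by site. Of the lower regions, 654 (46.6%) held at least 1 site listed between ES and LW and 643 (45.8%) at least 1 listed between ES and WB. For the higher regions the numbers were 192 (34.3%) and 207 (37.0%). Over all autosomal regions of the ES and LW list, 38.1% of the lower and 36.2% of the higher ones held a site of that list, and over those of the ES and WB list 37.6% and 33.4%. The lower regions thus held a listed site more often than all listed ones, while the higher regions were near that background. For sites listed against WB the bounds are unlike. Those in the 1963 were counted within the bounds of the first list, and the background within those of the second. Of the regions of the ES and LW list that did not meet the rule, 33.4% of the lower and 36.5% of the higher ones held a site of that list. Those regions were also smaller, with medians of 7 CG sites and 167 bp against 10 and 209 bp in the 1963. Whether size bears on these shares was not tested. The other regions held no listed site, so their difference rests on the mean over sites. Where sites were listed, there was a median of 4 in lower and 5 in higher regions, with a median standard error of the difference of 4.93 and 3.77 points against LW and of 5.19 and 3.83 points against WB. In lower regions 4119 of 4121 sites listed against LW and 3887 of 3890 against WB were lower in ES. In higher regions 6 of 1784 and 0 of 1849 were lower. No region held a site listed between LW and WB. Of the 19148 such autosomal sites, 7970 lay outside every region of their own list, and 114 of those lay in a region listed between ES and LW, all of them outside the 1963. A site that missed the authors' limits would not be listed. The rule kept out regions listed between LW and WB, which come from the same estimates. The absence of such sites is therefore no separate check.

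Sites apart in ES, listed in the same direction against both breeds and not listed between the others, numbered 6432 on the autosomes, 4912 lower and 1520 higher. The 1963 regions held 3746 of them (58.2%), each in the direction of its region. They lay in 510 of the lower regions (36.3%) and 123 of the higher ones (22.0%), against 2.75% and 1.12% of the regions listed between ES and LW that did not meet the rule. Site and region lists come from the same estimates, so this difference is built into the rule.

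The 8 lower regions with the widest difference from both breeds, among those with at least 10 CG sites in both lists, had 4.71% to 20.9% in ES, 84.6% to 98.3% in LW and 81.7% to 99.1% in WB. They were short, from 136 to 286 bp with 10 to 16 CG sites. The first was on chromosome 1, from 142820096 to 142820381, with the same bounds in both lists (all positions are on Sscrofa10.2). Its 15 CG sites had 4.71% in ES, 84.6% in LW and 98.1% in WB, and the standard error of the difference at single sites was 2.01 to 7.21 points against the former and 1.13 to 4.13 against the latter. All 15 sites were listed in both comparisons, and ES stayed between 4.54% and 4.74% across them. Neighbouring sites often carry an identical level in the lists, as they would after smoothing along the sequence, so that adjoining sites are not separate measurements.

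On chromosome 11, 13 CG sites from 83344547 to 83344773 had 15.7% in ES and 96.3% in LW, and the overlapping region had 95.2% in WB. A region on chromosome 10 (68970390 to 68970584, 14 CG sites) had 12.4%, 90.9% and 92.0% in ES, LW and WB. Its last site stood out within ES at 33.4%, against 10.8% at the lowest site, while LW kept to 90.9% to 91.2%. The other regions of this group lay on chromosome 8 (113526764 to 113526924, 16 CG sites, 20.9% in ES), chromosome 6 (38500365 to 38500634, 13 sites, 18.6%), chromosome 10 (36631227 to 36631413, 10 sites, 9.16%), chromosome 1 (19913129 to 19913313, 13 sites, 14.5%) and chromosome 5 (92708793 to 92708928, 10 sites, 19.1%). The other breeds were themselves apart in some of these, at 97.4% in LW and 81.7% in WB on chromosome 10 from 36631227, and at 85.4% and 99.1% on chromosome 1 from 19913129, much as in the first region.

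The 8 higher regions chosen in the same way were longer, from 192 to 942 bp with 13 to 54 CG sites, and had 68.0% to 97.3% in ES against 11.4% to 44.1% in LW and at most 41.4% in WB. The first was on chromosome 14 from 122030865 to 122031265, where 28 CG sites had 88.4% in ES and 13.5% in LW, and the overlapping region of 21 sites had 84.5% in ES and 17.7% in WB. Along its 27 listed sites ES went down from 95.8% at the first to 84.6% at the last, and LW ran between 11.1% and 15.5%. On chromosome 4 (8144707 to 8145037, 14 sites) ES had 97.3% and LW 27.7%, with 30.5% in WB over the overlapping region. On chromosome 7 a region of 13 sites (3893873 to 3894064) at 95.1% and 22.3% shared 14 bp with one of 22 sites (3894051 to 3894243) at 95.7% in ES and 31.9% in WB, so that these values belong to adjoining stretches.

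A region with the same bounds in both lists on chromosome 9 (142478117 to 142478680) had 45 CG sites at 74.2% in ES, 15.3% in LW and 16.8% in WB. The other regions of this group lay on chromosome 10 (69827749 to 69828432, 68.0% in ES), chromosome 8 (64102910 to 64103851, 92.9%), chromosome 3 (61149499 to 61149882, 92.5%) and chromosome 7 (25173976 to 25174783, 96.6%). The one on chromosome 3 was CG-dense, with 54 CG sites at 14.1 per 100 bp, and had 34.2% in LW.

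**Figure D3:**
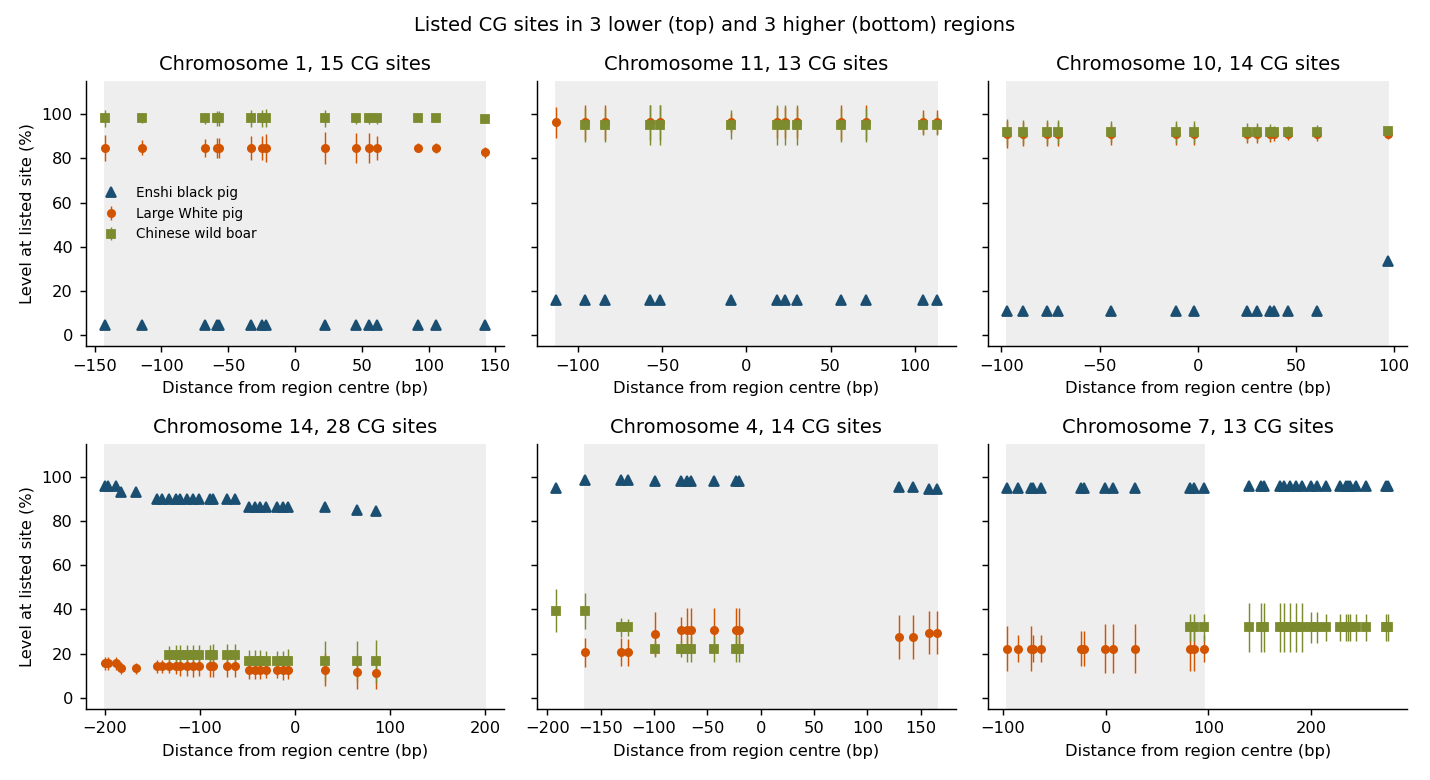
Level at each listed CG site (y axis, %) by distance from the centre of the region (x axis, bp) for the first 3 lower regions (top) and higher regions (bottom) of those with the widest difference. Triangles are ES, circles LW and squares WB, bars are ± 1 standard error of the difference from ES, and grey marks the region. Only listed sites are shown, so some carry only 1 of the other breeds. ES lies on the same side of each other breed plotted, which the choice of sites and regions largely set.

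The regions with the most CG sites showed smaller differences. Among lower regions, 103 CG sites on chromosome 18 (52660993 to 52661638) had 40.4% in ES and 60.5% in LW. WB had 65.6% over the 105 sites of the overlapping region. On chromosome 5, 95 sites (93325205 to 93325903) had 32.4% in ES and 60.9% in LW, with 54.9% in WB over the 37 sites of the overlapping region. Regions on chromosome 10 from 45177309 (91 sites) and from 57879589 (80 sites) had 43.4% and 44.9% in ES and 66.1% and 67.4% in LW. Among higher regions, 109 CG sites on chromosome 17 (66352598 to 66353317) had 38.7% in ES and 10.3% in LW, and the overlapping 49 sites had 50.3% in ES and 18.3% in WB. On chromosome 12, from 63391889 to 63392711, 95 sites had 84.3% in ES and 47.5% in LW, and the overlapping 92 sites had 56.0% in WB. The median standard error was 2.39 points over the 84 sites listed against LW. A region of 98 sites on chromosome 1 (28641615 to 28642270) had 60.2% and 38.5%, but shared 30 bp with its partner, and 94 sites on chromosome 13 (210682498 to 210683089) had 45.4% and 23.8%. In 4 of these 8 regions, 2 lower and 2 higher, no single site was listed in either comparison of ES.

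CG density, which took no part in the rule, differed between the directions. Lower regions had a median of 5.49 CG sites per 100 bp (quartiles 3.41 and 7.85) and higher regions 6.41 (4.41 and 9.97), at similar median lengths of 209 and 211 bp. All listed regions with a lower level in ES had a median of 5.26 and those with a higher level 5.70. CG-dense regions, with at least 10 CG sites per 100 bp as found in CpG islands, made up 25.0% of the higher and 12.5% of the lower regions, against 17.9% and 13.5% of all listed regions with those directions. CG-poor regions, with under 2 per 100 bp, made up 3.58% of the higher and 8.48% of the lower ones, against 9.88% and 10.7%.

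The share of lower regions fell with CG density. It was 85.6% of 139 CG-poor regions, 73.5% of 1508 in between and 55.7% of 316 dense ones. Among all autosomal regions listed between ES and LW it was 56.5%, 55.6% and 47.5% in the same classes. Regions apart in LW had 67.4%, 71.3% and 64.4%, and those apart in WB 67.4%, 63.9% and 57.5%. Regions share libraries and neighbours, so these shares carry no test. Levels moved with density as well. In CG-poor lower regions ES had a median of 35.5%, against 86.1% in LW and 88.7% in WB, with a median smaller difference of 46.7 points. In dense lower regions the medians were 49.4%, 75.6% and 73.7%, and the median smaller difference was 22.9 points. Dense higher regions had 65.8% in ES and 40.7% and 40.5% in the other breeds. The deposited regions have at least 4 CG sites, so that CG-poor regions were long, with medians of 451 bp in lower and 640 bp in higher ones.

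**Figure D4:**
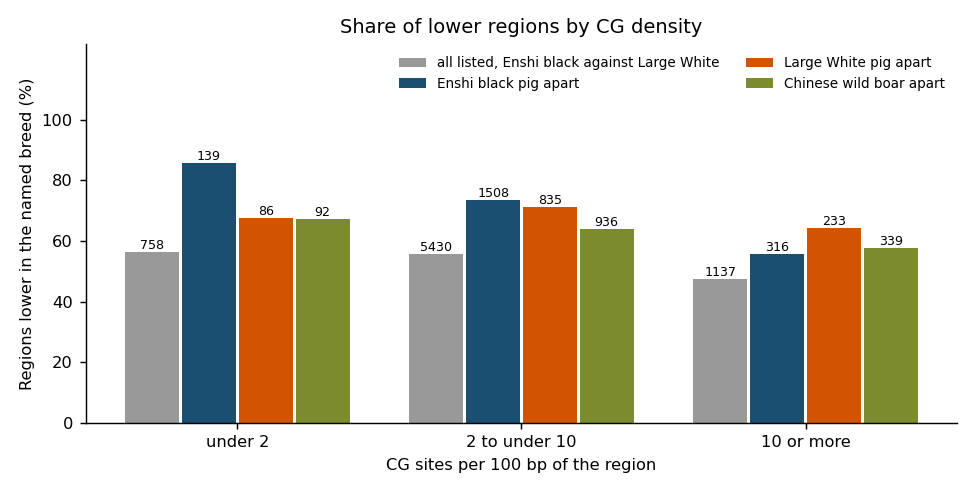
Share of regions that were lower in the named breed (y axis, %) by CG sites per 100 bp (x axis), for all autosomal regions listed between ES and LW (grey, lower in ES) and for the regions apart in each breed by the same rule. Numbers above bars are regions in the class. The bars of ES step down from 85.6% through 73.5% to 55.7%.

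All 18 autosomes held regions of both directions. Their number per Mb up to the last listed position ran from 0.412 on chromosome 13 to 1.61 on chromosome 12, with a median of 0.879. Chromosome 10 came second at 1.40 followed by chromosome 18 at 1.23. As a share of the regions listed between ES and LW, the range was narrower, from 17.7% on chromosome 11 to 32.0% on chromosome 17, and chromosome 12 had 31.1%. Lower regions were the majority on each autosome, from 66.7% on chromosome 1 to 78.9% on chromosome 8, while lower regions among all listed ones made up 50.2% to 61.8% per chromosome.

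**Figure D5:**
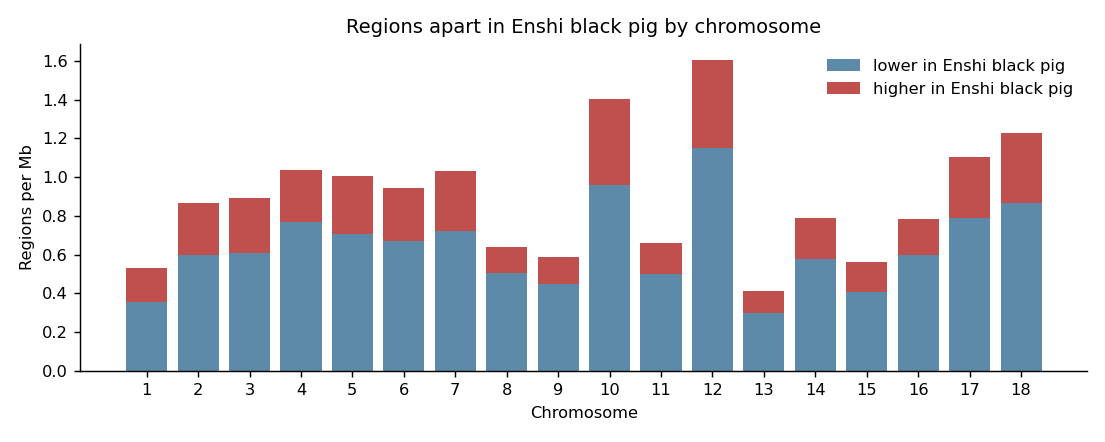
Number of regions apart in ES per Mb of each autosome up to its last listed position (y axis), stacked by direction (x axis, chromosome). Chromosome 12 stands at 1.61 and chromosome 10 at 1.40, chromosome 13 at 0.412, and the lower regions make up the larger part of each bar.

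The last 5 Mb of the chromosomes held 10.4% of the higher regions (58) and 6.05% of the lower ones (85), against 6.80% and 5.42% of all listed regions with the same directions. The first 5 Mb held 6.98% and 7.05%, against 8.48% and 7.20%. Regions were mostly far apart, with a median gap of 614207 bp, and 685 of the 1162 windows of 1 Mb that held any contained 1. Where neighbours lay within 1 kb of each other, 32 of 34 pairs had the same direction (94.1%), and within 10 kb 70 of 95 (73.7%). Among all listed regions the shares were 79.4% and 68.1%. Neighbours at any distance had the same direction in 62.0% of pairs here and in 55.0% among all listed regions. Within 10 kb the rise above these base shares was smaller here than among all listed regions, and within 1 kb it was larger. Regions within 1 kb may be pieces of one longer difference. The share within 1 kb is also partly set by the rule. Regions that overlap the same region of the second list must both have its direction. The set overlapped 1947 distinct regions of that list, so some were shared. How many of the 34 pairs shared one was not counted.

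The window with the most regions was at the end of chromosome 16, from 86 to 87 Mb, where 13 of the 19 regions listed between ES and LW met the rule, 9 lower and 4 higher. They ran from 86220151 to 86867340, and the last listed position of the chromosome is 86868395. The widest difference was at 86416166 to 86416322, with 14.7% in ES and 80.2% in LW over 6 CG sites, and 77.5% in WB over the overlapping region. A region of 22 CG sites from 86469266 to 86469591 had 20.8% in ES and 78.3% in LW, with 79.7% in WB over the overlapping region. Between them lay 1 further lower region and 1 higher one, 86420550 to 86420629. The 5 CG sites of the higher one had 91.8% in ES and 59.1% in LW, with 61.2% in WB over the overlapping region. The first of these regions, 86220151 to 86220931, was close to LW, at 59.4% in ES and 66.7% in LW. The overlapping region had 62.0% in WB. The level of ES in that overlapping region is not given here, so 62.0% is not to be set against 59.4%. On chromosome 3, the window from 17 to 18 Mb held 9 of 14 listed regions, 7 of them lower.

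Gene models could be set beside the regions only for part of chromosome 1, from the study's long-read transcripts on Sscrofa10.2. Of the 168 regions on chromosome 1, 9 lay in, or within 2 kb upstream of, 1 of the 2023 loci used here, and only 53 of these loci have a gene symbol. That is 5.36%, beside 6.73% of all 728 regions listed between ES and LW on this chromosome, so the count says nothing particular about the 9. In GABRA5 (ENSSSCG00000004827, 156791347 to 156874196, minus strand), which encodes a subunit of the receptor for the inhibitory neurotransmitter GABA, 12 CG sites from 156873303 to 156873384 had 52.3% in ES and 70.5% in LW, and the overlapping region had 71.6% in WB. It lies in an intron, 812 bp from the start of the single isoform. A locus that joins SRP14 (ENSSSCG00000004785), which encodes a protein of the signal recognition particle, with ENSSSCG00000029702 runs from 146252439 to 146470242 on the minus strand with 6 isoforms. Within an intron of it, 79 CG sites from 146334659 to 146335298 were higher in ES, at 73.3% against 51.2% in LW, with 52.0% in WB over the overlapping region.

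Of the 7 loci without a symbol, 3 had a region in, or reaching into, a first exon. In ENSSSCG00000004793 (148440344 to 148551363, minus strand, 2 isoforms), 5 CG sites from 148551099 to 148551151 had 40.6% in ES and 23.3% in LW, and the overlapping region 25.7% in WB. The region at locus 1.2603 (86960914 to 87037165, plus strand) runs from 86960838 to 86960923, so most of it lies upstream of the start. Its 9 sites had 50.6% in ES and 31.7% in LW, with 22.7% in WB over the overlapping region. In the single exon of locus 1.3442 (205477306 to 205479092), 19 sites from 205478783 to 205479023 had 77.3% in ES, 97.6% in LW and 97.4% in WB. Upstream of locus 1.3285, 29 sites from 182686189 to 182686553 had 38.1% in ES and 67.6% in LW, with 64.8% in WB over the overlapping region. Upstream of locus 1.1889, 16 sites from 294080621 to 294080737 had 23.7% in ES and 42.2% in LW. The region that overlaps these had 48.9% in WB, over 69 CG sites from 294080317 to 294080709. Introns of loci 1.195 and 1.3193 held regions at 42.7% and 53.9% in ES and at 94.1% and 95.9% in LW. The regions named in the earlier paragraphs were not placed in genes, since no annotation of this build was used for them.

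At the edge of the rule, 7 of the 1963 regions shared only 1 bp with their partner. One on chromosome 11 (85131365 to 85131461) had 39.8% in ES and 68.0% in LW, and its partner (85131461 to 85131606) had 38.3% in ES and 64.9% in WB. Just outside, 64 regions met all other conditions but overlapped a region listed between LW and WB, 30 of them lower. On chromosome 3 the region from 8818939 to 8819136 shared 1 bp with such a region, at 50.7% in ES, 79.1% in LW and 78.1% in WB.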

How the data were processed

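Bismark 0.15.0 and the build Sscrofa10.2 appear in the processing notes of the submitters. The authors deposited lists of CG sites and regions that differed between 2 breeds, with the estimated methylation level of each breed as a fraction, often identical at neighbouring sites, and the standard error of the difference. Caller, thresholds and read depth were not given in the sources used here, so the precision of a region is unknown beyond these errors. Which breed a column belongs to was read from the names of the tables, since in the labels the ES and WB list belongs to the LW sample. Levels of a breed in 2 lists correlated with r of 0.996 to 0.998 at shared autosomal sites. The deposited p-values, statistics and differences were not used, and differences were computed from the levels.

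Fractions were multiplied to percent. Overlaps, medians and shares were computed with Python 3.11.15, numpy 2.4.6 and pandas 2.3.3, intervals with scipy 1.17.1 and figures with matplotlib 3.10.9, and the rule was tested on simulated data. Where a region had several partners (19 regions), the one with the largest overlap gave the WB level. The regions described singly were the 8 per direction with the largest smaller-of-both differences among those with at least 10 CG sites in both lists, the 4 with the most CG sites, those at the edge of the rule, those in the gene models, and examples chosen after their values were seen. The members and lists were chosen with earlier results of these data known. No genome sequence of this build was used, so no sequence is printed.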

Additional observations from a re-analysis of the deposited data

Results flagged for a closer look

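The rule was limited to chromosomes 1 to 18, and regions that met its other conditions were also found in the listed data outside them. On chromosome X there were 145, which is 20.6% of the 704 regions listed there between ES and LW, with 109 lower and 36 higher in ES (75.2% lower). Their median level in ES was 52.7% in the lower and 79.0% in the higher ones. Unplaced scaffolds held 199, or 23.5% of 848 listed regions, with 132 lower and 67 higher (66.3% lower) and medians of 44.7% and 85.9%. No samples serve as controls here, and no test was made.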

How the results depend on the processing

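No paired analysis was possible because ES, LW and WB have 1 methylome each. Under 9 other settings lower regions stayed the majority, at 67.2% to 80.5%, and no direction turned. Of 61 recomputed values, 37 stayed within 1.5 times a count or the 95% binomial interval of a share or median, which covers counting only, and 24 moved. A difference of at least 30 points left 840 lower and 203 higher regions (80.5% lower), with median levels of ES of 43.1% and 87.3% and 4.20 and 4.74 CG sites per 100 bp. At least 10 CG sites left 575 and 281 (67.2% lower), with 52.6% and 73.7% and 7.19 and 8.67 per 100 bp. At least 200 bp left 594 and 209 (74.0% lower), with 4.74 and 6.05 per 100 bp. Sites in place of regions gave 4912 and 1520 (76.4% lower), with 24.6% and 88.5%. The first 3 of these settings keep fewer regions by construction. They also select by the difference, the CG sites or the length, which enter the levels or the density themselves. Those shifts are therefore no separate result, and the cause of the other changes was not tested. The 840 exceed the 839 counted from the partner with the largest overlap by 1 region on chromosome 6, which passes by the other of its 2 partners. An overlap of at least 50% of the shorter region, no region between the other breeds within 1 kb or that list not used, all sequences, and rows of the wild boar list moved none of the 7 results. The read depth, which is unknown, limits how small a difference could be listed.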

Other observations

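In 9 further autosomal regions the overlapping lists had opposite directions, so that ES was lower than one of the other breeds and higher than the other, without an overlapping region listed between those. On chromosome 4, the region from 72846195 to 72846562 had 63.5% in ES and 82.3% in LW, and the region from 72846562 to 72846827 had 87.5% in ES and 28.8% in WB. The regions share 1 bp, and the level of ES itself differs between them. On chromosome 7, the regions from 47161202 to 47162455 and from 47161293 to 47162582 share 1163 bp, yet ES had 69.9% in the first, against 54.1% in LW, and 54.5% in the second, against 67.1% in WB. On chromosome 6, 76 CG sites from 59405176 to 59405857 had 59.7% in ES and 49.4% in LW, while a part of that region, from 59405181 to 59405404, had 34.9% and 62.7% in WB. These bounds differ between the lists, so the levels are not those of one set of sites.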
